A study of Mus musculus with 454 samples.

Results

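The neurons described here are 79 uninjured cells of the mouse nodose ganglion that carry the target code Port, from 6 mice, in a series of 454 samples of which 1 is a droplet library and the rest are picked cells. They were chosen by 3 steps from the deposited reads: 2000 or more genes above 0, fewer than 10 reads of Sprr1a, and a mouse with 4 or more such cells. Sprr1a encodes a small proline-rich protein that sensory neurons switch on after their axons are damaged, and the word uninjured means only that this transcript was below that threshold. The cells they are set against passed the same steps and carry the codes GastG and GastP (95 cells of 8 mice, called Gast below) or IntP, IntM, IntD and IntL (43, 45, 35 and 44 cells, 13 mice in all, called Int below). The meaning of the codes and the way cells were marked for picking were not given in the sources used here, and no code is spelled out below. The labels describe these animals as wild type C57BL/6 mice of 8 to 12 weeks and name no treatment. Each picked cell was amplified by Smart-seq2, a protocol that reads whole transcripts of a single cell. The series also holds 1 droplet library of nodose cells (10x Genomics) from mice aged 6 weeks, which served here as a catalogue of neuron types. The value of a gene in a mouse is its log2(CPM + 1) averaged across the cells of that mouse, CPM being the usual depth-scaled read count. The mouse is the replicate throughout, and cells of 1 mouse are not counted as independent.

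The nodose ganglion holds the cell bodies of vagal sensory neurons, which carry signals from the gut, heart, lungs and blood vessels to the brainstem. These neurons fall into many types that differ in receptors and channels: some bear receptors for gut hormones such as cholecystokinin, some for serotonin released by gut endocrine cells, and some respond to stretch, ATP or acid. P2rx2, an ATP-gated channel, marks nodose neurons, while neurons of the neighbouring jugular ganglion express Prdm12.

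The Sprr1a step removed more Port cells than others. In Port 84 cells passed and 38 (31.1%) had 10 or more reads, against 10 Gast cells (9.52%) and 2 Int cells (1.18%). These values chose the cells and were not tested. The Port cells just inside the threshold had 9 and 7 reads, those just outside it had 11 and 39 reads, and the median of those outside was 3782 reads. Among the 79 cells kept, 54 had 0 reads of Sprr1a. Of 9 Port mice 3 (mice 22, 27 and 28) kept only 2, 2 and 1 uninjured cells and did not enter the tests. The remaining 6 mice gave 7 cells (mouse 21), 13 (mouse 46), 17 (mouse 47), 14 (mouse 51), 17 (mouse 52) and 11 (mouse 53).

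Depth was alike in the 3 groups, with a median of 1838170 reads a cell in Port, against 1528230 in Gast and 1501540 in Int. The shallowest Port cell had 565844 reads, while 1 IntM cell of mouse 26 passed at 3934 reads. Of the Port mice, 5 are numbered 46 to 53, above all Gast and Int mice (7 to 44), so that mouse number and code cannot be told apart. The cells read as nodose neurons. P2rx2 lay between 7.86 and 9.64 in the Port mice, between 7.11 and 8.85 in the Gast mice and between 8.85 and 9.73 in the Int mice, and Prdm12 did not exceed 0.42 in any mouse. Markers of satellite glia, summed over 7 genes, ranged from 17.4 to 29.9 in Port mice, from 14.7 to 36.3 in Gast mice and from 17.6 to 37.7 in Int mice. None of the tested marker genes of satellite glia (7), Schwann cells (5), endothelial or mural cells (3), fibroblasts (2) or red blood cells (2) was called by limma in Port against Gast or Port against Int. At an unadjusted p under 0.05 there were 1 of these in Port against Gast and 1 in Port against Int, and edgeR called 0 against Gast and 1 against Int. Immune markers summed to at most 0.9 in Port mice, against 4.49 in Gast mice and 4.06 in Int mice.

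The 3 genes Rprm, Cckbr and Scn10a were proposed as marks of these neurons, and none of them separated the Port mice from all other mice. Rprm, a cell cycle inhibitor induced by p53, had its lowest, median and highest mouse values at 4.06, 4.85 and 7.1 in Port, at 3.82, 4.68 and 5.54 in Gast and at 0.16, 2.05 and 4.73 in Int. Port and Gast mice overlapped over most of their range, and within Int the IntL mice (3.64 to 4.73) lay near Port while the other Int mice reached no more than 2.53. Cckbr, the receptor for gastrin and cholecystokinin, was at 0.52, 1.65 and 2.46 in Port, at 0, 0.68 and 1.57 in Gast and at 0, 0.37 and 1.5 in Int, so the groups overlapped although 3 Port mice were above every Gast and Int mouse. Scn10a, the sodium channel of nociceptors, was at 7.52, 7.91 and 9.17 in Port, at 6.99, 8.36 and 9.68 in Gast and at 7.57, 8.73 and 9.11 in Int, and overlapped throughout. These 3 genes were chosen with results in view, so their values are a description. They stayed in the fit across all genes, and Rprm and Cckbr are therefore among the genes counted as called against Int below.

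Port mouse 21 stood apart from the other 5 Port mice. For 54.8% of the 12535 genes tested its value was the highest or lowest of the 6, against 25% to 32.8% for each of the others. It also had the fewest cells, 9 of its 16 cells had been removed by the Sprr1a step, and 4 of its 7 remaining cells matched 1 type of the droplet catalogue, cluster 8. Calca, the gene of the peptide CGRP, was at 5.35 in mouse 21 and between 0.66 and 1.97 in the other Port mice, against 2.29 to 4.94 in Gast and 0 to 1.3 in Int. Htr3a, a subunit of the serotonin-gated channel, was at 4.55 in mouse 21 and between 8.04 and 10.2 in the others. The number or share of genes called in each comparison below is therefore given with mouse 21 and without it. For single genes, values without it are given only in part.

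Set against the mean of Gast and Int, very few genes were called: 2 of 12535 genes passed an adjusted p of 0.05 in limma, a share of 0.016%, and both were lower in Port (0 higher, 0.0%). At an unadjusted p under 0.05 limma had 1041 genes. Because Gast and Int are averaged here, a gene with Port between them can show little difference. Sqrdl (named Sqor in RefSeq, gene 59010, chromosome 2, 122765327 to 122809553 on GRCm38), the mitochondrial enzyme that oxidises hydrogen sulfide, had its lowest, median and highest mouse values at 3.07, 3.4 and 3.89 in Port, at 3.65, 4.44 and 5.34 in Gast and at 4.21, 6.22 and 8.64 in Int. All 6 Port mice were below every Int mouse, and 5 of them were below every Gast mouse. The log2 difference was -1.85 ± 0.3 (SE, adjusted p = 0.0174, limma), and it was -1.94 ± 0.32 (adjusted p = 0.0159) without mouse 21. Rab37 (gene 58222, chromosome 11, 115091331 to 115162773), a small GTPase of secretory vesicles, was at 5.69, 6.08 and 6.35 in Port, at 5.72, 6.65 and 7.57 in Gast and at 6.47, 7.99 and 9.1 in Int. Its log2 difference was -1.16 ± 0.21 (adjusted p = 0.0468, limma). Most of either difference was against Int: taken alone, Port against Gast gave -0.99 ± 0.35 for Sqrdl (adjusted p = 0.312) and -0.6 ± 0.24 for Rab37 (adjusted p = 0.395), and Port against Int gave -2.72 ± 0.32 (adjusted p = 3.86e-05) and -1.71 ± 0.22 (adjusted p = 6.27e-05). The edgeR test on summed reads called neither gene (adjusted p = 0.462 for Sqrdl and 0.231 for Rab37) and called 1 other, Fstl4. In limma the call of Sqrdl was lost when Port mouse 46, 51, 52 or 53 was left out (4 of 27 mice, adjusted p between 0.0619 and 0.1), and that of Rab37 for 21 of the 27 (adjusted p between 0.0541 and 0.351). Among mice within the range of the Port mouse numbers the log2 differences were -1.26 for Sqrdl (adjusted p = 0.482) and -0.54 for Rab37 (adjusted p = 0.929).

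**Figure D1:**
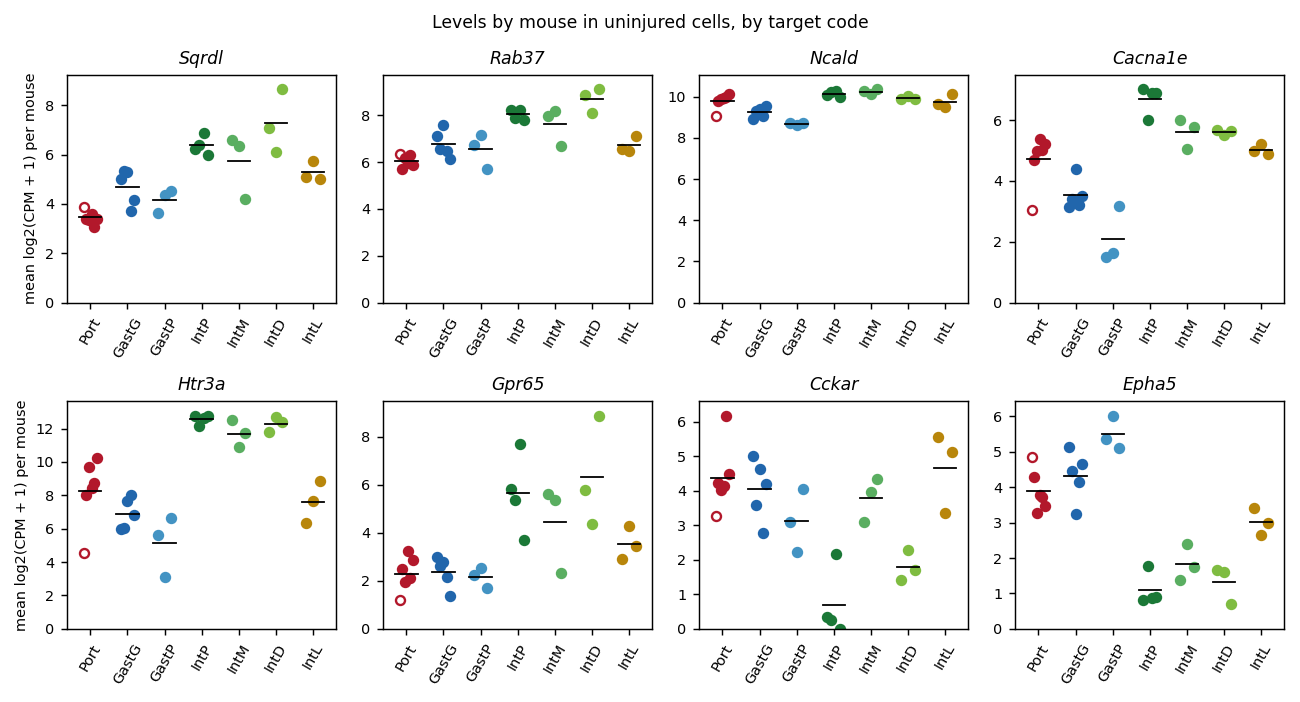
Mean log2(CPM + 1) of 8 genes, 1 point a mouse, by target code with Port on the left; the bar is the mean of the code and the open point is Port mouse 21. Sqrdl in Port lies between 3.07 and 3.89, and Htr3a in Port lies between 4.55 and 10.2 while IntP, IntM and IntD mice lie between 10.9 and 12.8.

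Without mouse 21 the same comparison called 20 genes (0.16% of those tested), 12 higher (0.0957%) and 8 lower (0.0638%) in Port, with Sqrdl and Rab37 among them. The genes below were named after their values had been seen. Of genes of transmitter release, Rab3b, a GTPase of synaptic vesicles, was higher by a log2 difference of 1.52 ± 0.3 (adjusted p = 0.0315, limma), and Doc2b, a calcium sensor of vesicle fusion, by 0.82 ± 0.14 (adjusted p = 0.0159). Kcnn3, a potassium channel opened by calcium, was between 1.57 and 2.78 in the 5 Port mice, against 0 to 2.06 in Gast and 0 to 2.54 in Int, a difference of 1.28 ± 0.27 (adjusted p = 0.0472). Cdh22, a cadherin, and Hap1, a partner of huntingtin, were higher by 1.14 ± 0.23 and 0.93 ± 0.19 (adjusted p = 0.0315 and 0.0422). Among the genes lower in Port were Avil, an actin-binding protein of peripheral sensory neurons (-1.58 ± 0.32, adjusted p = 0.0341), and Kcnh8, a voltage-gated potassium channel (-1.13 ± 0.24, adjusted p = 0.0422). Avil was between 5.1 and 7.59 in the 5 Port mice and at 10.3 in mouse 21, against 7.42 to 10.3 in Gast and 5.44 to 9.82 in Int.

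Against Gast alone, 13 genes passed (0.104% of those tested), 8 higher (0.0638%) and 5 lower (0.0399%) in Port, and all 13 also passed without mouse 21. Without that mouse 2.52% of genes passed, and the balance turned, with 0.957% of genes higher and 1.56% lower in Port. Channels and calcium-binding proteins were among those higher in Port. Cacna1e, the pore of the R-type calcium channel, was at 3.03, 4.99 and 5.38 (lowest, median and highest mouse) in Port and at 1.51, 3.19 and 4.39 in Gast, a log2 difference of 1.9 ± 0.3 (adjusted p = 0.00435, limma). Mouse 21 gave the lowest value, and the other 5 Port mice were above every Gast mouse. P2rx2 was at 7.86, 9.53 and 9.64 in Port and at 7.11, 8.18 and 8.85 in Gast, and was higher by 1.2 ± 0.24 (adjusted p = 0.0339). Ncald, the neuronal calcium sensor neurocalcin delta, was at 9.06, 9.93 and 10.2 in Port and at 8.62, 9 and 9.54 in Gast, a difference of 0.84 ± 0.13 (adjusted p = 0.00435).

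Secreted, surface and membrane proteins were among the rest of the genes higher than in Gast. Nell2, a secreted neuronal protein that binds the guidance receptor Robo3, was at 1.06, 2 and 2.82 in Port and at 0, 0.5 and 0.94 in Gast, with no overlap and a difference of 1.57 ± 0.25 (adjusted p = 0.00435, limma). Cd24a, a surface glycoprotein, differed by 1.48 ± 0.26, Nnat, a membrane protein of the endoplasmic reticulum, by 2.17 ± 0.42, Plekhh1 by 1.17 ± 0.23 and the peroxisomal membrane protein Pxmp2 by 0.95 ± 0.17 (adjusted p between 0.00968 and 0.0356). Nnat in mouse 21 was at 1.81, below the Gast median of 3.08, whereas the other 5 Port mice were between 4.36 and 5.76. Of the channel and calcium sensor genes above, in Int mice Cacna1e was between 4.88 and 7.01, P2rx2 between 8.85 and 9.73 and Ncald between 9.51 and 10.4. Nell2 was between 0.77 and 3.85 in Int mice, with a median of 2.02, and so overlapped with Port.

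Lower in Port than in Gast were Dpp10, an accessory subunit of A-type potassium channels, the transcription factor Zfp521, the glutathione transferase Gstm2, the ciliary transport protein Ttc30b and the inflammatory caspase Casp1. Dpp10 was at 0.58, 1.01 and 1.28 in Port and at 1.4, 2.6 and 4.18 in Gast, and Zfp521 was at 0.45, 0.77 and 1.17 in Port and at 1.26, 1.91 and 2.91 in Gast, both with no overlap. Their log2 differences were -1.7 ± 0.33 (adjusted p = 0.0287, limma) and -1.3 ± 0.21 (adjusted p = 0.00435). The differences of Gstm2, Ttc30b and Casp1 were -1.51 ± 0.31, -1.01 ± 0.19 and -0.77 ± 0.15. All 5 genes overlapped between Port and Int. In Int mice Dpp10 was between 0.84 and 2.41, Zfp521 between 0 and 1.22 and Casp1 between 0 and 0.62. Gstm2 was between 0.54 and 2.17 and Ttc30b between 3.44 and 4.22 there. For genes as low as Dpp10 and Zfp521 the log2(CPM + 1) scale understates the change. The edgeR test called 0 genes in Port against Gast, with 927 at an unadjusted p under 0.05, against 1263 in limma. Port mouse 21 and GastP mouse 44 had lost the largest shares of their cells at the Sprr1a step (56.2% and 38.9%, against at most 26.7% in any other mouse used). Leaving out both gave 643 genes in limma (5.13%), with 1.95% of genes higher and 3.18% lower in Port.

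Against Int, 603 genes passed (4.81% of those tested), with 2.51% of genes higher and 2.3% lower in Port. The list counts against Int below are to be read beside these shares over all tested genes. Without mouse 21 the share was 3.16%, and 57.7% of the 603 were still called. The edgeR test called 825 genes (6.58%), among them 64.5% of the 603, and its split was less even, with 4.36% of genes higher and 2.23% lower in Port. The comparisons with Gast and with Int share the Port mice and are not independent of each other. A difference from Int need not set Port apart from Gast. The Port and Gast means were 2.3 and 2.3 for Gpr65, 4.73 and 4.74 for Cacna2d3 and 3.08 and 3.19 for Csf1. They were further apart for Htr3a (8.28 and 6.24) and Kcnab2 (5.88 and 6.69). Of the 603 genes, 320 (53.1%) had a Port mean between the Gast and Int means, against 43.5% of all tested genes. Few of the called genes separated the groups: in 5 every Port mouse was above every Int mouse, and in 13 every Port mouse was below. Here and against Gast, overlap was examined only among called genes. Its share over all tested genes was not counted, so statements of no overlap are a description. When only mice numbered within the range of the Port mice (21 to 53) were kept, which left 3 IntL mice and 1 IntM mouse on the Int side, 0 genes passed. Also 0 passed when each cell was centred on the mean of the picked cells matched to the same droplet cluster. That mean took in cells of all groups, and clusters were filled unevenly (cluster 13 held 13 Port, 3 Gast and 67 Int cells). Centring thus also removes part of a difference between codes, and the part played by the mix of types was not tested.

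Serotonin-gated channel genes were lower in Port than in Int. Htr3a and Htr3b, the subunits of the serotonin-gated cation channel through which gut endocrine cells excite vagal endings, were both called, and they were the only called genes among 12 tested serotonin and monoamine receptors. Htr3b was at 2.47, 5.26 and 7.31 in Port (lowest, median and highest mouse) and at 4.28, 9.07 and 9.88 in Int, a log2 difference of -3.03 ± 0.47 (adjusted p = 0.000459, limma). Htr3a was at 4.55, 8.6 and 10.2 in Port and at 6.36, 12.1 and 12.8 in Int, a difference of -2.76 ± 0.57 (adjusted p = 0.0047). Every Port mouse was below every IntP, IntM and IntD mouse for both genes, whereas the IntL mice (6.36 to 8.84 for Htr3a) lay within the range of Port. Leaving out mouse 21, which had the lowest values, gave -2.48 ± 0.4 for Htr3b and -2.01 ± 0.45 for Htr3a.

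Of 15 tested metabolic and nutrient sensors, 2 were higher and 3 lower in Port, and without mouse 21 this was 1 higher (Abcc8) and 1 lower (Gpr65). The shares over all tested genes were 2.51% higher and 2.3% lower. Gpr65, a receptor that senses protons, was at 1.21, 2.29 and 3.23 in Port and at 2.33, 5.38 and 8.87 in Int, a difference of -2.69 ± 0.54 (adjusted p = 0.00393, limma). In Gast it was at 1.37, 2.39 and 3, much as in Port. Ffar3, a receptor for short-chain fatty acids, was lower by the smaller difference of -1.28 ± 0.33 (adjusted p = 0.0227; 0.064 without mouse 21). Casr, the calcium-sensing receptor, and Abcc8, the sulfonylurea receptor subunit of the ATP-sensitive potassium channel, were higher by 0.67 ± 0.18 and 1.08 ± 0.21, and the call of Casr was lost without mouse 21 (adjusted p = 0.0726). Both were low in all groups, Abcc8 lying between 0.54 and 2.65 in Port and between 0 and 1.35 in Int.

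Gut hormone receptors moved in both directions: of 16 tested, 4 were higher, Cckbr among them, and 2 lower in Port (3 and 2 without mouse 21). Cckar, the cholecystokinin receptor through which meals signal satiety, was at 3.27, 4.18 and 6.18 in Port and at 0, 2.27 and 5.55 in Int, a difference of 1.64 ± 0.4 (adjusted p = 0.0147, limma). Npy2r, a receptor for peptide YY, was at 2.13, 3.35 and 4.02 in Port and at 0, 1.59 and 4.27 in Int, a difference of 1.16 ± 0.32 (adjusted p = 0.0365; 0.0843 without mouse 21). In both genes the IntL mice overlapped with Port, and among mice within the Port range of numbers the differences turned to -0.21 for Cckar and -0.63 for Npy2r. The vasopressin receptor Avpr1a was higher by 1.05 ± 0.25. Ntsr1 and Sstr2, receptors for neurotensin and somatostatin, were lower, with differences of -1.8 ± 0.38 and -1.18 ± 0.24. Among 8 tested opioid and cannabinoid genes 3 were lower and 0 higher, with mouse 21 and without it. Oprk1, the kappa opioid receptor, was at 0.58, 0.98 and 1.54 in Port and at 1.53, 3.17 and 5.44 in Int, with 1 Port mouse reaching the lowest Int mouse and a difference of -2.2 ± 0.32 (adjusted p = 0.000229). Cnr1, the cannabinoid receptor of neurons, and Mgll, the lipase that degrades an endocannabinoid, had differences of -1.01 ± 0.24 and -1.29 ± 0.27.

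Ion channels were split as well. Of 37 tested potassium channel genes 6 were higher and 4 lower in Port, of 11 calcium channel genes 2 were higher and 3 lower, and of 10 sodium channel genes 0 were called by limma (1 at an unadjusted p under 0.05, 0 by edgeR). All tested genes together had 2.51% higher and 2.3% lower. Without mouse 21 potassium channel genes gave 5 higher and 3 lower, and calcium channel genes 2 and 2. Kcnk2, a background potassium channel opened by stretch, was at 4.46, 4.86 and 5.89 in Port and at 0.77, 3.36 and 5.59 in Int, a difference of 1.45 ± 0.28 (adjusted p = 0.00289, limma). Kcnab2, a cytoplasmic subunit of voltage-gated potassium channels, was higher by 1.56 ± 0.26 (adjusted p = 0.00101). Kcnt2, a potassium channel opened by sodium, and Kcnk18, a background potassium channel regulated by calcineurin, were lower, with differences of -1.57 ± 0.33 and -1.56 ± 0.32. The difference of Kcnk18 turned to 0.19 among mice within the Port range of numbers.

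Among calcium channels the pore-forming Cacna1h, of the low-voltage type, was between 3.07 and 3.76 in Port and between 3.63 and 5.16 in Int, a difference of -1.16 ± 0.2 (adjusted p = 0.00121, limma). The accessory subunit Cacna2d3 was lower by a similar difference of -1.24 ± 0.21, and the accessory subunits Cacnb3 and Cacnb4 were higher by 0.72 ± 0.13 and 0.65 ± 0.15. Cacna1e, higher in Port than in Gast, was lower in Port than in Int (-1.02 ± 0.27, adjusted p = 0.0282; 0.0982 without mouse 21). Of 13 TRP channel genes Trpv2 and Trpc7 were higher, by 0.29 ± 0.08 and 0.83 ± 0.19. Of 14 genes linked to mechanosensation 2 were higher, Kcnk2 and the acid-sensing channel Asic1 (1.42 ± 0.35), and Tmc3 was lower (-1.34 ± 0.4). The calls of Asic1 and Tmc3 were lost without mouse 21 (adjusted p = 0.067 and 0.15).

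**Figure D2:**
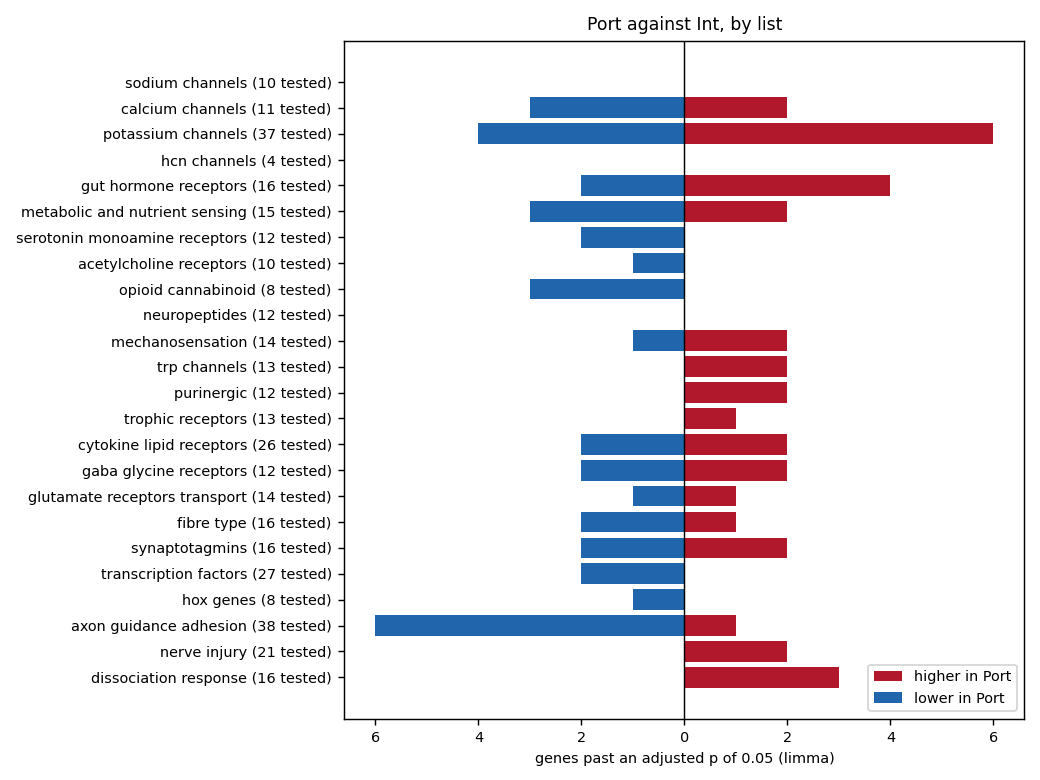
Number of genes in each list called higher and called lower in Port than in Int, by limma at an adjusted p under 0.05, beside the number tested. Opioid and cannabinoid genes were called in the lower direction only (3 of 8), while potassium channels were called in both (6 and 4 of 37). Of all tested genes 2.51% were called higher and 2.3% lower.

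Receptors for adenosine, lipids, cytokines and fast transmitters added smaller groups. The adenosine receptors Adora2a and Adora1 were higher, by 1.05 ± 0.21 and 1.22 ± 0.35, and were the called genes among 12 purinergic genes. Adora2a turned to -0.43 when injured cells were kept. The bradykinin receptor Bdkrb2 (1.33 ± 0.28) and the sphingosine phosphate receptor S1pr3 (1.19 ± 0.3) were higher, while the cytokine receptor genes Il4ra and Il13ra1 were lower (-1.14 ± 0.32 and -0.92 ± 0.26). Among GABA and glycine receptor genes Gabrb1 was higher, by 1.05 ± 0.26, and Gabrg1 and Glrb were lower, by differences of -1.42 ± 0.28 and -0.68 ± 0.13. Gria2, the AMPA receptor subunit that sets calcium permeability, was between 4.75 and 6.44 in Port and between 5.28 and 7.61 in Int, a difference of -1.14 ± 0.19 (adjusted p = 0.00105, limma). Without mouse 21 the calls of Adora1, S1pr3, Il4ra, Il13ra1 and Gabrb1 were lost (adjusted p between 0.0603 and 0.118).

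Of 38 genes of axon guidance and adhesion 1 was higher and 6 were lower in Port (1 and 5 without mouse 21), beside 2.51% and 2.3% of all tested genes. Epha5, an ephrin receptor of axon guidance, was at 3.28, 3.76 and 4.85 in Port and at 0.7, 1.67 and 3.4 in Int, with 1 Port mouse below the highest IntL mouse and a difference of 2.09 ± 0.26 (adjusted p = 5.04e-05, limma). It was the single higher gene of the list, and among the lower genes were the contactin Cntn5 (-1.71 ± 0.38), the neuropilin Nrp2 (-1.57 ± 0.43) and the netrin receptor Unc5b (-1.41 ± 0.27). The call of Nrp2 was lost without mouse 21 (adjusted p = 0.115). Of 16 synaptotagmins, membrane proteins many of which sense calcium in vesicle release, 2 were higher and 2 lower in Port. Syt16 was between 4.03 and 5.41 in Port and between 0 and 3.86 in Int, with no overlap and a difference of 2.06 ± 0.32 (adjusted p = 0.000511), and Syt3 was higher by 1.53 ± 0.33. Syt4 and Syt10 were lower, with differences of -0.53 ± 0.14 and -0.88 ± 0.24, and both calls were lost without mouse 21 (adjusted p = 0.0992 and 0.09), where Syt13 was called higher (adjusted p = 0.0262). The T-box factor Tbx3 was between 3.02 and 6.85 in Port and between 6.76 and 8.05 in Int, a difference of -1.8 ± 0.35 (adjusted p = 0.003). Outside the lists, Klhdc8a (2.48 ± 0.47), Lgi1, a secreted synaptic protein (2.38 ± 0.41), and Cyp1b1, a cytochrome P450 (2.14 ± 0.38), had the highest differences of the genes named by rule. Tmem54 (-2.48 ± 0.48), Dnase1l3, a secreted nuclease (-2.15 ± 0.38), and Nnat (-2.07 ± 0.38) had the lowest after Sqrdl.

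A few genes of the injury and dissociation lists were also higher in Port than in Int. Of 21 tested nerve injury genes Jun and Csf1 were called, and of 16 genes that respond to tissue dissociation Jun, Btg2 and Dusp1 were called, with 0 lower in either list. The edgeR test called 3 and 1. The median log2 difference of the dissociation genes was 0.68 against IntP, IntM and IntD, -0.25 against IntL and -0.23 against Gast. That of the injury genes was 0.41, 0.15 and -0.15. The IntL mice lay within the Port range for Jun (5.13 to 5.85) and Btg2 (5.47 to 6.26). Csf1, a growth factor that injured sensory neurons release, was at 2.57, 3.08 and 3.5 in Port and at 0.27, 1.64 and 2.9 in Int, a difference of 1.35 ± 0.21 (adjusted p = 0.000552, limma). Without mouse 21 Csf1 and Btg2 were still called, and Jun and Dusp1 were not (adjusted p = 0.0771 and 0.0673). The cells had been chosen on low Sprr1a, an injury gene, so that these lists are not independent of the choice. The part that injury or dissociation played in the other differences was not tested. Over all lists, 71 tested genes (17.6%) were called in Port against Int, 2 (0.495%) in Port against Gast and 0 in Port against both (72 at an unadjusted p under 0.05, 0 by edgeR). Over all tested genes the shares were 4.81%, 0.104% and 0.016%. The lists hold receptors and channels of sensory neurons and were drawn up with earlier results known, so their share is a description.

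**Figure D3:**
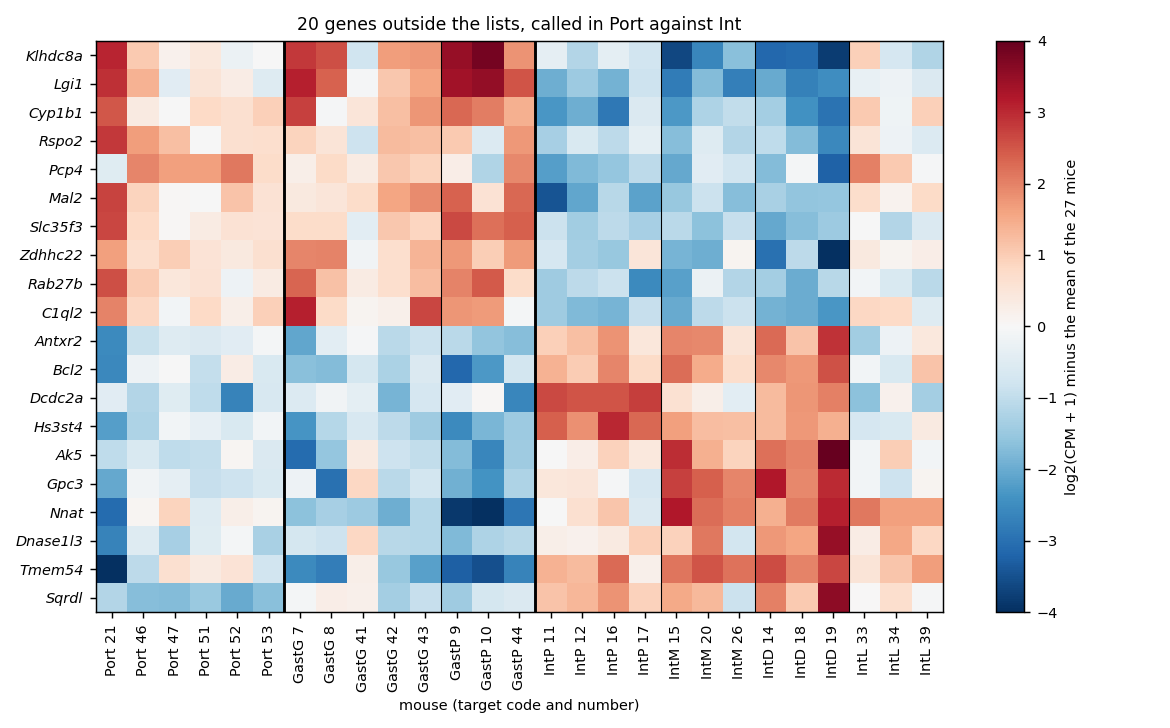
Value of each of 27 mice minus the mean of the 27 mice, in log2(CPM + 1), for 20 genes called in Port against Int, with Port mice on the left. Sqrdl lies between 3.07 and 3.89 in Port, between 5.02 and 5.74 in IntL and between 4.21 and 8.64 in the other Int mice.

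Port was also set against IntL and against the other 3 Int codes separately. These contrasts, added after the values above had been seen, gave 1358 called genes (10.8% of those tested) in Port against IntP, IntM and IntD, and 2 genes (0.016%) in Port against IntL, with 994 at an unadjusted p under 0.05 and 1 called by edgeR. Without mouse 21 limma called 1100 genes (8.78%) in the first and 1 gene (0.00798%) in the second. The number of IntL mice was 3, against 10 of the other Int codes, so the counts are not matched in precision. Glial markers moved with this split: the 7 satellite glia genes summed to between 17.4 and 29.9 in Port mice, between 24.8 and 37.7 in IntL mice and between 17.6 and 26.6 in the other Int mice, and the 5 Schwann cell genes to between 14.9 and 21.4 in Port mice, between 16.6 and 24.8 in IntL mice and between 14.7 and 19.1 in the other Int mice. The median log2 difference of the satellite glia genes was -0.84 in Port against IntL and 0.31 in Port against the other Int codes. The limma test called 0 of these 12 genes in either contrast, with 3 at an unadjusted p under 0.05 against IntL and 1 against the others, and edgeR called 0 against IntL and 3 against the others. Their part in these counts was not tested. The 2 genes that limma called against IntL were Rbm46, an RNA-binding protein, and Gnb4, a G protein subunit. The edgeR test called neither of them. Rbm46 was between 0 and 0.91 in Port and between 1.92 and 2.33 in IntL, a difference of -1.54 ± 0.21 (adjusted p = 0.00137, limma). Gnb4 was between 6.86 and 7.37 in Port and between 7.61 and 8 in IntL, a difference of -0.75 ± 0.14 (adjusted p = 0.0452; 0.0945 without mouse 21).

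Matched to the 28 neuron clusters of the droplet library, the Port cells were spread widely. Each picked cell was given the cluster with the highest Spearman correlation over the leading genes of the clusters, and 85.9% of cells had the same cluster by Pearson correlation. The 79 Port cells lay in 19 clusters, the fullest of which (cluster 13, led by Gpr65 and Htr3a) held 13 cells, or 16.5%. The 95 Gast cells lay in 21 clusters with 43.2% in cluster 8, led by Dcdc2a and Ifi27l2a, and the Int cells in 12 clusters with 40.1% in cluster 13. The numbers of cells differ between the groups, so the numbers of clusters are a description. No doublet caller was run on the droplet cells, and 5 of the clusters had 2 or more satellite glia genes among their 8 leading genes; 9 Port cells (11.4%), 7 Gast cells (7.37%) and 5 Int cells (2.99%) matched these.

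Per mouse, cluster 8 held 18.3 ± 19.8% of Port cells (SD, n = 6) and 1.51 ± 3.85% of Int cells (n = 13), above the Int mean in all 6 Port mice (exact permutation test, 2-sided, p = 0.00118, adjusted over the family p = 0.0118). Mouse 21 had 57.1% of its cells there, and without it the Port mean was 10.5% (adjusted p = 0.0155, exact permutation test). Cluster 13 held 14.9 ± 10.9% of Port cells and 43.5 ± 23.7% of Int cells, below the threshold only before adjustment (exact permutation p = 0.011, adjusted p = 0.0549). Against Gast no cluster passed with all mice, but without mouse 21 cluster 8 was lower in Port (10.5% of Port cells against 43.4% of Gast cells, exact permutation adjusted p = 0.0155), and clusters 13 (17.9% of Port cells against 3.64% of Gast cells, adjusted p = 0.0272) and 1, led by Htr3a and Lgals1 (11% of Port cells against 1.94% of Gast cells, adjusted p = 0.0155), were higher. Against all Gast and Int mice together 0 of 5 clusters passed.

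**Figure D4:**
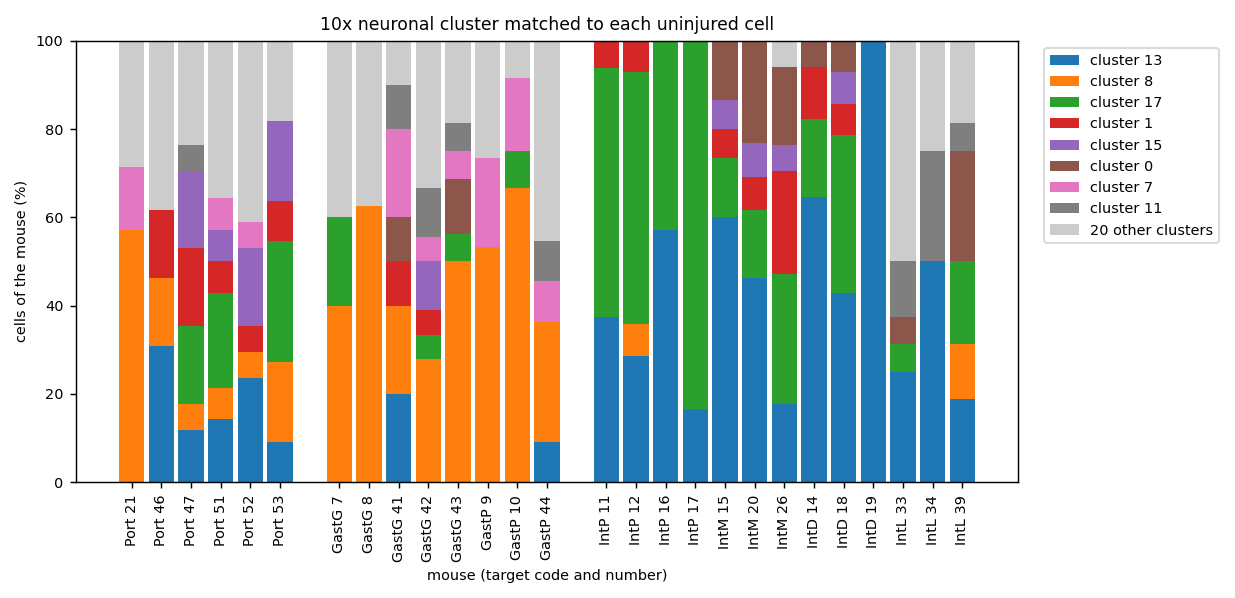
Share of the cells of each mouse matched to each droplet cluster, Port mice on the left. Cluster 8 holds a mean of 18.3% of Port cells, 43.4% of Gast cells and 1.51% of Int cells, and mouse 21 differs from the other Port mice.

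The spread itself was measured, after the shares had been seen, as the share of pairs of cells of a mouse that lay in the same cluster. It was 11.9 ± 8.4% in Port mice (SD, n = 6), 20.7 ± 15.1% in Gast mice (n = 8) and 37.4 ± 24.3% in Int mice (n = 13). The difference of Port from Int was -25.5 percentage points (exact permutation test, 2-sided, p = 0.0195, adjusted over both sides p = 0.039), and from Gast -8.83 points (p = 0.231, exact permutation test). The call against Int was lost when any Port mouse other than mouse 21 was left out (exact permutation adjusted p between 0.0712 and 0.0836), and without mouse 21 the adjusted p was 0.0334. From Gast and Int together it was -19.2 points (p = 0.0497, exact permutation test), and p reached up to 0.091 when a Port mouse was left out. Of 25 genes that mark vagal neuron types, counted as the share of cells with 10 or more reads, 0 passed in Port against Gast, Int or both. The lowest adjusted p was 0.0673, shared by Cckar (51.1% of Port cells and 22.6% of Int cells, exact permutation p = 0.00269) and Pnlip (15.1% of Port cells and 1.12% of Int cells, exact permutation p = 0.00236).

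The choice of cells moved the share of genes called. With cells of every Sprr1a level kept, 8 Port mice entered and 5.0% of tested genes were called against Gast and Int, 3.09% against Gast and 15.5% against Int. With only cells of 0 reads of Sprr1a, which left 5 Port mice without mouse 21, the shares were 0.0159%, 1.14% and 2.06%. The filtered and unfiltered sets differ in mice as well as in cells, and these cannot be told apart here.

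**Figure D5:**
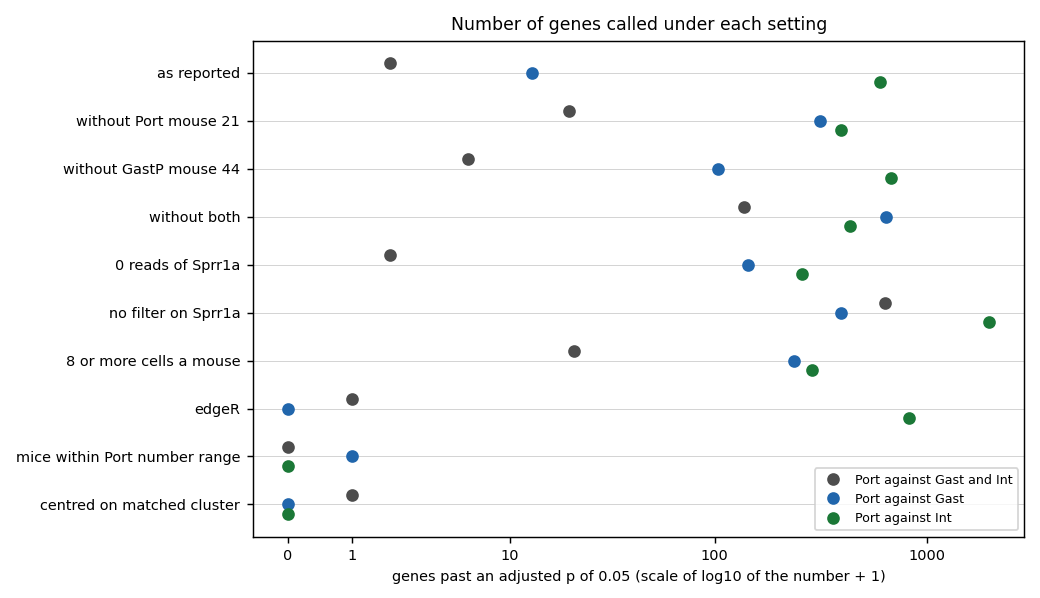
Number of genes called in Port against Gast and Int, Port against Gast and Port against Int under 10 settings, on a log10(n + 1) axis. With every Sprr1a level kept 5.0%, 3.09% and 15.5% of genes were called, and with all mice and the stated filter 2, 13 and 603 genes.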

How the data were processed

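Per the labels' protocols, Smart-seq2 was used for picked cells and 10x Genomics for the droplet library. The submitters' processing notes list Cell Ranger 2.0.1 and mm10; an aligner for picked cells was not given in the sources used here. In reads, the deposited table of picked cells holds log2 values of reads with a floor of -5.64 (log2 of 0.02), read here as 0; 94.1% of the values above it were whole within 1 part in 1000. Mouse and target code come from header lines of that table, per the file headers. Its 1 column without a sample was not used. The deposited droplet matrices hold counts of UMIs.

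Reads were scaled to CPM and averaged as log2(CPM + 1) over the cells of a mouse with 4 or more cells. A gene was tested where 5% of cells had 10 reads. limma 3.58.1 (trend, R 4.3.3) was fitted over 7 codes, a group being the mean of its code means, with Benjamini-Hochberg adjustment over 12535 genes and a threshold of 0.05. Fold changes are on the log2(CPM + 1) scale, which understates the change of low genes. The mouse was taken as the replicate, so p-values measure the spread between mice. edgeR 4.0.16 on summed reads was the alternative. Shares were compared by exact permutation over mice, listing every split of the mice, with the routine checked against scipy 1.17.1 on random values. Droplet cells were clustered with scanpy 1.11.5 and leidenalg 0.10.2, with no doublet caller. Each tool was run on its own simulation of Port against Gast and Int on 12535 genes. For limma, mouse values were drawn with normal noise at the fitted spread of each gene. It recovered 89% of log2 changes of 1 and 100% of 2, and 11 unchanged genes were called. The simulation changed 200 genes drawn from all tested, which makes the adjusted threshold less strict than in the data, where 2 genes were called. In the data with all mice, limma did not call differences of 1.04 for Kcnn3 (adjusted p = 0.28) or -0.99 for Avil (adjusted p = 0.544). The recovery is therefore not the power of the reported comparison. For edgeR, counts were drawn with the same dispersion for all genes, which was not estimated from these data. It recovered 3% and 50%, and 1 unchanged gene was called. The simulations differ in their noise, so the recoveries cannot be compared between the tools.

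The members, lists and tests were chosen with earlier results of these data known. The named genes are the markers, the 2 highest and 2 lowest called genes of each list, and the 10 highest and 10 lowest called genes outside the lists with every Port mouse on 1 side of the median of the other mice. That rule was written for Port against Gast and Int, where 2 genes were called; it was carried over to the other comparisons, and further genes were named, after values had been seen. Some genes that this rule names are not reported here. Gene positions are from RefSeq on GRCm38.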

Additional observations from a re-analysis of the deposited data

Results flagged for a closer look

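A mouse was set apart from its group where its gap to the nearest mouse exceeded Dixon's 95% critical value. The groups of values examined were those of the named genes in Port and in Gast, which were chosen after values had been seen. Of these, 22 (12.6%) held such a mouse, where chance gives about 1 in 20. In 14 of the 22 it was Port mouse 21. Over all genes tested mouse 21 was set apart in this way in 4.92%, and each of the other Port mice in 0.303% to 1.09%.

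Mouse 21 was low for Cacna1e (3.03, the other Port mice 4.7 to 5.38), P2rx2 (7.86, others 9.26 to 9.64), Ncald (9.06, others 9.78 to 10.2) and Nnat (1.81, others 4.36 to 5.76). It was also low for Sstr2 (0.30, others 1.56 to 2.17), Tmc3 (2.51, others 5.46 to 6.56), Tmem54 (1.25, others 4.18 to 5.87) and Antxr2 (2.88, others 4.53 to 5.33). The same held for Rab3b (3.46, others 5.98 to 7.23), Cdh22 (1.43, others 2.64 to 3.32) and Rbm46 (0, others 0.66 to 0.91). It was high for Kcnab2 (7.37, others 5.15 to 5.9), Slc35f3 (5.38, others 2.75 to 3.5) and Rprm (7.1, others 4.06 to 5.06).

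Among the other Port mice, mouse 47 was high for Ttc30b (4.18, others 3.06 to 3.43) and mouse 52 was low for Dcdc2a (4.17, others 5.67 to 6.38). GastG mouse 41 was low for Kcnab2 (5.01, the other Gast mice 6.45 to 7.41) and Klhdc8a (3.61, others 6.09 to 8.25) and high for Dnase1l3 (4.86, others 2.28 to 3.34). GastG mouse 7 was low for Ffar3 (0, others 0.76 to 1.38) and high for Doc2b (1.33, others 0.17 to 0.7), and GastP mouse 44 was high for Cdh22 (3.29, others 1.51 to 2.33).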

How the results depend on the processing

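Shares of tested genes that were called are given as Port against Gast and Int, Port against Gast and Port against Int, which were 0.016%, 0.104% and 4.81%. They were 0.00798%, 0.0% and 6.58% by edgeR, 0.0%, 0.112% and 5.27% with a pseudocount of 10, 0.00798%, 0.104% and 3.94% with one of 0.1, 0.0%, 0.0602% and 2.4% with no filter, and 0.00798%, 0.136% and 4.75% with TMM factors. They were 0.0159%, 1.14% and 2.06% with 0 reads of Sprr1a, 5.0%, 3.09% and 15.5% with no Sprr1a filter, 0.167%, 1.89% and 2.29% with 8 or more cells a mouse, and 0.0159%, 0.00796% and 8.29% with 1 or more. Equal weight for every mouse gave 0.00798%, 0.016% and 1.72%, mice within the Port range of numbers 0.0%, 0.00798% and 0.0%, and centring on the matched cluster 0.00798%, 0.0% and 0.0%; the cause was not tested. Leaving out 1 mouse gave 0.0% to 0.16%, 0.0319% to 2.52% and 3.06% to 5.75%, the highest of the first and second being without mouse 21 (otherwise up to 0.0479% and 0.83%). Leaving out mice 21 and 44 together, chosen after seeing the data, gave 1.1%, 5.13% and 3.48%. Leaving out a Port mouse gave 0.00798% to 0.12% against IntL (0.00798% by edgeR) and 8.17% to 9.57% against IntP, IntM and IntD. Type gene shares called against Int were 2 at 1 or at 100 reads and 0 to 2 when a mouse was left out; matched clusters called were 2 against Int by Pearson correlation, 1 to 2 against Int and 0 to 3 against Gast when a mouse was left out. The difference in pairs of cells ranged from -22.5 to -17.9 points against Gast and Int, from -12.2 to -7.55 against Gast and from -28.9 to -24.3 against Int.

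Of 86 differences of single genes 75 kept their sign under every alternative run, 78 were called with all mice, 55 were called whichever mouse was left out, and 18 were called under every alternative run other than no Sprr1a filter, cluster centring and the range of mouse numbers. Among mice within the Port range of numbers the sign turned for Cckar (-0.21), Npy2r (-0.63), Sstr2 (0.065), Mgll (0.095), Kcnk18 (0.19), Cacna2d3 (0.18) and Glrb (0.16) against Int and for Avil (0.23) against Gast and Int. After centring it turned for Cckar (-0.031), Mgll (0.14), Gabrg1 (0.000812) and Glrb (0.13) against Int and Nnat (-0.000284) against Gast, and with no Sprr1a filter for Adora2a (-0.43). No paired analysis was possible because each mouse carries 1 code and the replicate numbers only name mice.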
